A study of Homo sapiens with 18 samples.

Results

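The 40 genes described here act in G2 and mitosis, from the cyclin B and CDK1 switch to the proteins that condense, align and separate chromosomes and divide the cell. They were taken as a named list, with no expression value in the rule, and all 40 were found among the 35616 gene symbols of the deposited expression table. All 40 also passed the filter on low values, which kept 12005 genes. The RNA came from HUDEP-2 cells, a human cell line of erythroid progenitors that was established from umbilical cord, and from HBBko, its derivative without a working beta-globin gene (HBB). Each line was sampled in 3 libraries without differentiation, in 3 after 48 h of differentiation and in 3 after 5 d, which gives 18 libraries in 6 groups. The unedited line (WT) is the control at each stage, and no agent other than the differentiation culture is named for any group. The number of clones behind HBBko is not stated, nor whether the triplicates were separate cultures, so p-values measure the spread between these libraries, which may be technical.

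In dividing cells the genes of G2 and mitosis are transcribed late in the cycle and fall silent after division, so that in a culture their summed RNA tends to follow the share of cells in G2 and M. Cyclin B with CDK1 starts mitosis, the aurora and polo kinases build the spindle, the spindle assembly checkpoint holds CDC20 until every kinetochore is attached, and the anaphase-promoting complex then destroys securin and cyclin B. Erythroid precursors go on dividing for several rounds while they make haemoglobin and leave the cycle before they lose the nucleus. In bulk RNA, fewer cells in G2 and M and less RNA per such cell cannot be told apart.

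Promoters of late cell cycle genes commonly carry a cell cycle homology region (CHR), the element bound by the DREAM and MuvB complexes, beside CCAAT boxes bound by NF-Y. RefSeq promoter windows (assembly GRCh38.p14, 250 bases before to 50 after each gene's start) were found for 33 of the 40 genes, and none was matched for FOXM1, AURKA, BIRC5, TPX2, TTK, BUB3 and UBE2C. The CHR was searched as TTTGAA or TTCGAA and the CCAAT box as CCAAT, both on either strand. A gene with several windows was counted once, as holding a motif if any of its windows did. The CHR letters stood in 26 of the 33 genes (78.8%), against 19.5% of all 27305 genes with a window and 15.1% of the 8916 tested genes among them. CCAAT stood in 26 of 33 as well (78.8%), against 39.7% of all genes, and both motifs in 21 (63.6%), against 7.85% of all genes. The first base of a CHR match lay between 60 bases before and 20 after the start in 20 of the 33 members and in 5.36% of all genes, a range chosen after the positions were seen. An E2F-type motif, TTGGCGC or TTCCCGC on either strand, stood in 6 members (18.2%), against 2993 of all 27305 genes and 18.4% of tested genes. It stood in 25 of 33 S phase genes (75.8%), while the CHR stood in 3 of those (9.09%). In 98 other G2 and M genes, from the list described below, the CHR stood in 53.1% and CCAAT in 63.3%. Both motifs stood in 33.7% of these 98 genes and the E2F-type motif in 36.7%. ATTGG, the CCAAT box read on the other strand, can share bases with TTGGCGC. A match is a description of these letters and no evidence of binding. The following 6 windows run from 120 bases before to 30 after the RefSeq start and are written 5′ to 3′ on the gene's strand. They belong to the 6 genes of highest mean level among the members with both a CHR and a CCAAT match. The presence of both motifs was thus fixed by the choice. Capitals mark CHR and CCAAT matches on either strand. CKS2 is at chr9:89311075-89311224 on the plus strand, NUSAP1 at chr15:41332761-41332910 on the plus strand, PRC1 at chr15:90994506-90994655 on the minus strand, CDC20 at chr1:43358861-43359010 on the plus strand, CKS1B at chr1:154974561-154974710 on the plus strand and CCNB2 at chr15:59105026-59105175 on the plus strand.
CKS2: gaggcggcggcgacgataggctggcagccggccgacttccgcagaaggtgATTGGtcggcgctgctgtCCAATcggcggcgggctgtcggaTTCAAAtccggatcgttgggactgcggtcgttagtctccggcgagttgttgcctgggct
NUSAP1: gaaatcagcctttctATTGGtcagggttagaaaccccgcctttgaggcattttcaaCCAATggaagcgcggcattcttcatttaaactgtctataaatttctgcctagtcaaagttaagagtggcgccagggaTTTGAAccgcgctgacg
PRC1: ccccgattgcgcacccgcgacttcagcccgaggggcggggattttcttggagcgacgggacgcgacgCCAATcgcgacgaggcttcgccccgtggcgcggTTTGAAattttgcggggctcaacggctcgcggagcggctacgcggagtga
CDC20: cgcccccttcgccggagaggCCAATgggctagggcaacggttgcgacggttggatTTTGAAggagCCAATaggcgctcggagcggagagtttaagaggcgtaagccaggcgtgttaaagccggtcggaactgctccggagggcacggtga
CKS1B: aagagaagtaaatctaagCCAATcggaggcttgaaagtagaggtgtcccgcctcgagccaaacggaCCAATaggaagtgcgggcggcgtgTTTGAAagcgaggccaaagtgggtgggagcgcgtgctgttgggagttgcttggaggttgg
CCNB2: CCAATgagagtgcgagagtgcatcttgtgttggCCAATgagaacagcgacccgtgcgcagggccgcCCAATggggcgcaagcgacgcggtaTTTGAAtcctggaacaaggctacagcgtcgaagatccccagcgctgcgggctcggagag
In 5 of the 6 a CHR match starts within 60 bases before to 20 after the start, and in CDC20 the nearer of its matches lies just outside that range, between a pair of CCAAT boxes.

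The targeted gene gave the first check of the labels. HBB stood at 4598 to 4983 scaled TPM in undifferentiated HBBko libraries and at 12454 to 22376 in WT, at 22101 to 24265 against 99196 to 132741 at 48 h, and at 69004 to 72650 against 427628 to 458719 at 5 d, with no overlap at any stage. Scaled TPM is the authors' transcript abundance per transcript length with a further scaling between libraries, so that levels can be set side by side between genes. All 10 erythroid markers passed the filter, with sums of 6054 to 9744 scaled TPM in undifferentiated WT libraries and of 183250 to 189769 in HBBko at 5 d. Of 7 mast cell and eosinophil markers 5 passed. The sum of the list was 363 to 490 in undifferentiated WT and 599 to 691 in undifferentiated HBBko, mostly TPSAB1 (up to 561). It was at most 37.7 in any differentiated library. Of its eosinophil genes, PRG2 stood at 108.9 to 113.1 in undifferentiated HBBko and at 37.9 to 46.0 in undifferentiated WT. EPX leaned the other way, at 5.41 to 6.46 in undifferentiated HBBko and at 6.63 to 8.21 in undifferentiated WT. CLC was at 0 in all libraries. Megakaryocyte, myeloid, lymphoid and stromal lists summed to at most 4.58, 3.57, 0.512 and 0.5002, with PF4, PPBP, CD3E, CD2 and MS4A1 at 0. WT undifferentiated replicate 3 stood apart from its group, with HBB at 22376 against 12517 and 12454 and a sum over the 40 genes of 3508 against 2948 and 3186; results that rest on it are given with and without it. Globin RNA took 2.28% to 3.84%, 20.2% to 24.7% and 50.5% to 52.1% of the WT total at the 3 stages, and 1.62% to 1.78%, 12.9% to 13.6% and 38.6% to 39.9% of the HBBko total.

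The 40 genes together carried more RNA at each later stage on the scaled TPM axis. Their sum was 2948, 3186 and 3508 in undifferentiated WT, 3852 to 4063 at 48 h and 4833 to 4875 at 5 d. In HBBko it was 2838, 2827 and 2859 without differentiation, 3671 to 3758 at 48 h and 5211 to 5382 at 5 d. The HBBko sums thus lay below every WT sum at the first 2 stages and above every WT sum at 5 d. As a share of the whole library the WT value went from 0.371% to 0.406% without differentiation to 0.413% to 0.430% at 48 h and 0.320% to 0.335% at 5 d, while HBBko went from 0.355% to 0.362% to 0.432% to 0.441% and 0.452% to 0.455%. As a share of all RNA other than globin, both lines were higher at each later stage, and at 5 d WT held 0.669% to 0.687% and HBBko 0.736% to 0.756%. The direction of the last WT step therefore depends on the denominator, and so does the genotype order at 48 h, where HBBko was above WT as a share of the total and below it as a share of non-globin RNA.

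**Figure D1:**
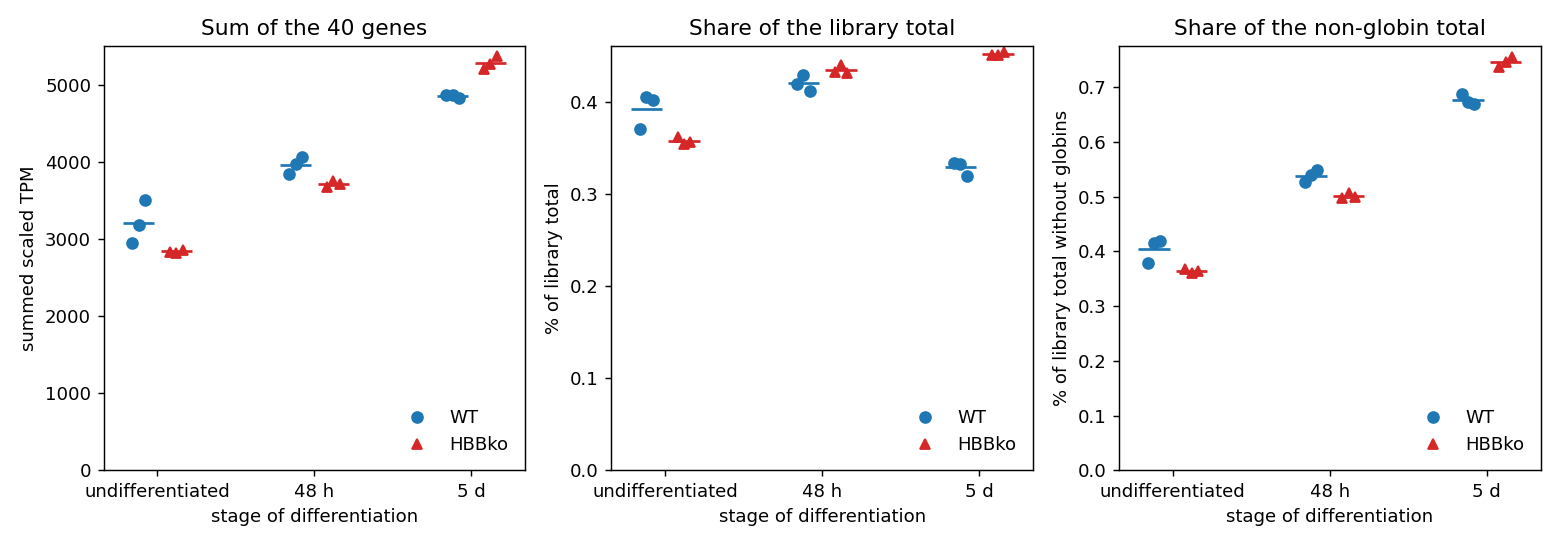
Summed level of the 40 genes in each of the 18 libraries, as scaled TPM (left), as percent of the library total (middle) and as percent of the total without globins (right), by stage, with WT in blue circles and HBBko in red triangles; each point is a library and each line is the mean of 3. WT at 5 d reads 4833 to 4875 scaled TPM, above its 48 h libraries, but 0.320% to 0.335% of the total, below them.

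Levels of single members differed widely. CKS2, a small adaptor that binds cyclin-dependent kinases, led in both undifferentiated groups, with 309.0, 303.2 and 398.7 in WT and 322.2, 315.4 and 337.2 in HBBko. CCNB1, the main B-type cyclin, followed with a mean of 191.8 in each of those groups, and BUB3, a checkpoint protein, with 167.1 in WT and 165.3 in HBBko. At 48 h CKS2 (345.4 in WT, 362.9 in HBBko) was followed by CDC20 (265.0 and 226.5), the activator of the anaphase-promoting complex. At 5 d the order was different: NUSAP1, a nucleolar and spindle-associated microtubule bundler, led with 424.7, 418.4 and 421.5 in WT and 440.6, 452.6 and 475.5 in HBBko. PRC1, which bundles the antiparallel microtubules of the spindle midzone, came next in WT (mean 287.2), and PTTG1, securin, came next in HBBko (301.9, 311.7 and 328.5). CDC25C, a phosphatase that removes the inhibitory phosphates of CDK1, was the lowest of the 40 in each group, with group means from 7.74 in undifferentiated HBBko to 37.4 in HBBko at 5 d. CENPE, the kinetochore kinesin, was next to lowest in each group.

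**Figure D2:**
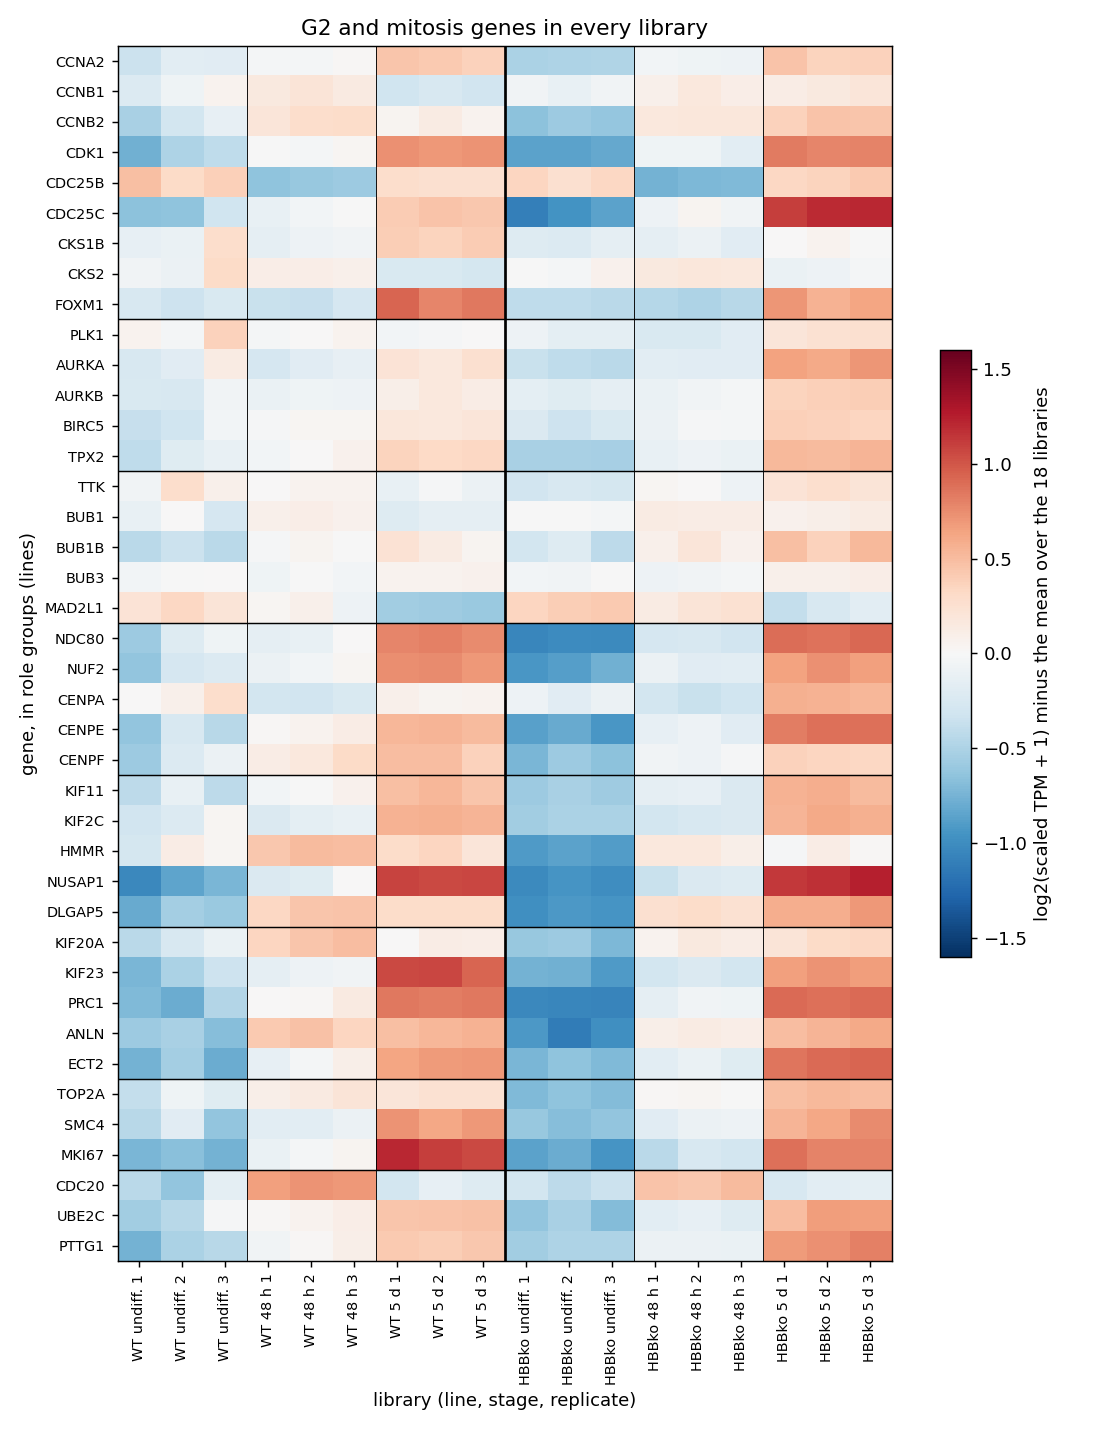
Each of the 40 genes (vertical axis, ordered by role with lines between the 8 roles) in each of the 18 libraries (horizontal axis), as log2(scaled TPM + 1) minus the gene's mean over all libraries. Most genes are lowest in the undifferentiated libraries and highest at 5 d, while MAD2L1 runs the other way and CDC20 peaks at 48 h.

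For the first 48 h of differentiation in WT, 27 of the 40 genes rose and 3 fell by limma (adjusted p under 0.05 after Benjamini-Hochberg over 12005 genes, the rule for every call below). Among all tested genes 23.5% rose and 41.4% fell, 64.9% in all. The median log2 fold change on the log2(scaled TPM + 1) scale, used for all fold changes here, was 0.33 over the members and -0.10 over all tested genes. With each library set to the same total the split was 19 higher and 12 lower (13.3% and 55.8% of all tested genes). Without WT undifferentiated replicate 3 it was 30 and 3 (2921 and 5062 of the 12005 tested genes). With the replicate number as a block NDC80 passed as well (0.20, adjusted p = 0.045). Globin RNA and the erythroid markers moved with stage, and their part in these changes was not tested.

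The largest rises to 48 h in WT were those of CDC20, DLGAP5 and ANLN. CDC20 went from 121.6, 105.3 and 147.1 scaled TPM to 258.0, 270.8 and 266.2, a log2 fold change of 1.09 ± 0.08 (SE, adjusted p = 3.4e-09, limma). DLGAP5, which stabilises kinetochore microtubules (chromosome 14, 55148112 to 55191678, minus strand, GRCh38 as are all spans here), went from 46.4, 55.9 and 54.1 to 103.6, 111.2 and 113.1, a log2 fold change of 1.06 ± 0.06 (adjusted p = 5e-11). ANLN, anillin, the scaffold of the contractile ring, went from 18.8, 19.8 and 17.5 to 38.6, 40.2 and 36.8 (1.01 ± 0.06, adjusted p = 1.3e-10). Every 48 h library of these 3 genes lay well above every undifferentiated one. All 5 midzone and cytokinesis genes rose under each of the 4 scalings (median 0.69 on the deposited scale), among them KIF20A, a central spindle kinesin, at 0.69 and ECT2, the exchange factor that activates RhoA, at 0.68. PRC1 went from 98.2, 91.8 and 115.9 to 160.8, 162.5 and 177.0 (0.71). All 3 anaphase genes rose as well under each scaling. All 3 chromosome structure genes rose on the deposited scale and 2 of them under equal totals, with MKI67, the Ki-67 protein that coats mitotic chromosomes, at 0.69. CDC25B, a phosphatase that activates CDK1 at mitotic entry (chromosome 20, 3786772 to 3806121, plus strand), went the other way, from 65.8, 57.9 and 61.2 to 29.5, 30.3 and 30.7, a log2 fold change of -1.01 ± 0.05 (adjusted p = 7.4e-12). CENPA, the histone H3 variant of centromeres, fell from 42.6, 44.8 and 51.8 to 34.3, 34.1 and 35.6 (-0.41 ± 0.06, adjusted p = 8.1e-06). MAD2L1, the checkpoint protein that holds CDC20 inactive, fell from 59.4, 64.1 and 58.7 to 51.8, 54.0 and 47.8 (-0.24 ± 0.06, adjusted p = 0.0015).

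HBBko cells over the same interval had 31 genes higher and 3 lower, against 25.1% and 40.1% of all tested genes (65.2% in all), and a member median of 0.44 beside -0.09 over all genes. DLGAP5 went from 41.1, 42.9 and 41.9 scaled TPM to 97.7, 100.3 and 97.3 (1.21 ± 0.06, adjusted p = 8.5e-12). HMMR, a spindle-associated microtubule binder, went from 25.7, 26.6 and 25.8 to 55.4, 55.0 and 52.4 (1.03 ± 0.08, adjusted p = 2.3e-09), with no overlap. ANLN rose by 1.12 ± 0.06 (adjusted p = 3.1e-11). The lower genes were CDC25B, from 59.4, 56.1 and 59.0 to 27.2, 28.1 and 28.2 (-1.04 ± 0.05, adjusted p = 5.3e-12), CENPA at -0.20 (adjusted p = 0.0047) and MAD2L1 at -0.19 (adjusted p = 0.0079). Under equal library totals the split was 26 higher and 6 lower (19.4% and 46.7% of all tested genes). All 5 spindle motor and microtubule genes, all 5 midzone genes, all 3 anaphase genes and all 3 chromosome structure genes rose under each of the 4 scalings.

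Between 48 h and 5 d in WT the direction of the list depended on the scaling: 26 members were higher and 8 lower on the deposited scale, against 30.8% and 49.5% of all tested genes (80.2% in all), but 7 were higher and 25 lower when every library was set to the same total, where 13.9% and 71.6% of all tested genes were. With globin genes removed before the totals were equalised the split was 27 and 7 (31.7% and 47.7% of all tested genes). With median-of-ratios scaling it was 32 and 3 (40.2% and 39.3% of all tested genes). Relative to the median of all tested genes, which was -0.20 on the deposited scale and -0.70 under equal totals, the member median was higher by 0.57 and 0.44. NUSAP1 (chromosome 15, 41332694 to 41381050, plus strand) went from 170.4, 174.4 and 200.03 scaled TPM to 424.7, 418.4 and 421.5, a log2 fold change of 1.21 ± 0.07 (adjusted p = 3.1e-11). FOXM1, the transcription factor that drives many G2 and M genes, went from 47.3, 47.2 and 50.6 to 117.4, 105.8 and 110.5 (1.18 ± 0.05, adjusted p = 5.7e-13). MKI67 (chromosome 10, 128096659 to 128126385, minus strand) went from 61.6, 65.0 and 68.3 to 154.3, 144.2 and 138.9 (1.15 ± 0.06, adjusted p = 6.3e-12). In these 3 genes every 5 d library lay above every 48 h library, and each also rose under equal totals (NUSAP1 by 0.57, FOXM1 by 0.55 and MKI67 by 0.51). KIF23, the kinesin of the centralspindlin complex, was higher at 1.12 and CDC25B at 0.88. CDC20 fell from 258.0, 270.8 and 266.2 to 133.0, 149.8 and 141.9 (-0.90 ± 0.08, adjusted p = 1.7e-08). MAD2L1 went further down to 34.3, 33.8 and 33.3 (-0.58 ± 0.06, adjusted p = 5.5e-08), and CCNB1 from 224.1, 233.2 and 223.4 to 161.6, 168.6 and 163.4 (-0.46 ± 0.05, adjusted p = 4.1e-07). The other lower calls were CKS2 (-0.36), KIF20A (-0.35), BUB1 (-0.25), HMMR (-0.20) and CCNB2 (-0.17). With median-of-ratios scaling BUB1, HMMR and CCNB2 turned direction, at 0.018, 0.066 and 0.10. Those of HMMR and CCNB2 each ended without WT 48 h replicate 3 (-0.19, adjusted p = 0.051, and -0.15, adjusted p = 0.088) or WT 5 d replicate 3 (-0.16, adjusted p = 0.091, and -0.16, adjusted p = 0.076), as well as without WT 48 h replicate 2. The 48 h libraries enter both WT steps, so the values of the steps are given side by side and not compared.

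The same interval in HBBko gave 33 members higher and 3 lower, against 30.2% and 49.5% of all tested genes (79.7% in all), with a member median of 0.55 beside -0.20 over all genes, and 20 higher and 11 lower under equal totals (17% and 66.2% of all tested genes). NUSAP1 went from 155.9, 170.4 and 173.0 scaled TPM to 440.6, 452.6 and 475.5 (1.45 ± 0.07, adjusted p = 3.3e-12). CDC25C (chromosome 5, 138285265 to 138338355, minus strand) went from 15.1, 16.6 and 15.4 to 35.7, 38.1 and 38.2 (1.20 ± 0.08, adjusted p = 3.2e-10). NDC80, the microtubule-binding subunit that names the kinetochore complex it shares with NUF2, went from 72.3, 73.0 and 70.4 to 162.9, 160.0 and 165.2 (1.17 ± 0.09, adjusted p = 8.9e-10). All 5 kinetochore genes, all 5 midzone genes, all 5 mitotic kinases and partners and all 3 chromosome structure genes rose on the deposited scale, while under equal totals 4, 3, 2 and 2 of them rose and 1 midzone gene, KIF20A, fell (-0.28). The call of KIF20A for a rise also ended without HBBko 48 h replicate 1 or replicate 3 and without HBBko 5 d replicate 2 or replicate 3 (0.14 to 0.17, adjusted p = 0.065 to 0.12). The 3 lower genes were CDC20 at -0.66 (adjusted p = 1e-06), MAD2L1 at -0.46 (adjusted p = 1.3e-06) and CKS2 at -0.24 (adjusted p = 0.0056). CCNB1 stood at 213.2, 225.9 and 217.6 at 48 h and at 219.8, 224.4 and 231.2 at 5 d, which overlap (0.04), and under equal totals it fell (-0.41).

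In undifferentiated cells 26 of the 40 genes were lower in HBBko than in WT and none was higher, against 22.3% lower and 20.9% higher among all tested genes (43.3% in all). The count of lower members was 23 to 26 under each of the 4 scalings (19% to 22.3% of all tested genes), with 1 higher under median-of-ratios scaling. A fit to only the groups compared, however, called 14 lower and none higher (12.3% and 11.7% of all tested genes). The member median was -0.27, beside -0.01 over all tested genes. Without WT undifferentiated replicate 3, 23 were lower and 1 higher, with a median of -0.19, where 2437 and 2170 of the 12005 tested genes were lower and higher. Undifferentiated HBBko also had the higher mast cell and eosinophil sum given above, whose part in these differences was not tested.

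The largest differences without differentiation were those of HMMR, NDC80 and NUF2. HMMR (chromosome 5, 163460203 to 163491945, plus strand) stood at 40.3, 53.1 and 49.99 scaled TPM in WT and at 25.7, 26.6 and 25.8 in HBBko, a log2 fold change of -0.84 ± 0.08 (adjusted p = 4.3e-07). NDC80 stood at 57.9, 75.4 and 83.4 against 41.9, 42.8 and 42.4 (-0.74 ± 0.09, adjusted p = 5.9e-06). NUF2, its partner, stood at 25.9, 33.5 and 34.5 against 20.7, 21.5 and 23.4 (-0.49 ± 0.08, adjusted p = 0.00014). Every HBBko library of these 3 genes lay below every WT library, and the WT libraries were the more scattered. All 5 kinetochore genes were lower under each of the 4 scalings (median -0.42 on the deposited scale), including CENPE at -0.42, CENPF at -0.36 and CENPA at -0.24. TOP2A, the topoisomerase that untangles sister chromatids (chromosome 17, 40388516 to 40417950, minus strand), stood at 102.0, 127.1 and 116.9 against 81.2, 84.9 and 82.3 (-0.47 ± 0.06, adjusted p = 1.2e-05). CDC25C stood at 9.83, 9.88 and 12.7 against 7.003, 7.77 and 8.44 (-0.43 ± 0.08, adjusted p = 0.00054). Of the midzone genes 4 of 5 were lower, ANLN at -0.41, PRC1 at -0.39, KIF20A at -0.37 and KIF23 at -0.29, and ECT2 read 0.005. The checkpoint list held a single lower gene, TTK, the kinase that starts the checkpoint, at -0.38 (adjusted p = 0.00017), while BUB1 (0.11), BUB1B (0.10), BUB3 (-0.02) and MAD2L1 (0.14) did not pass. CCNB1 had equal means (191.8 in both lines), and CDC20 (0.05), PTTG1 (0.05), AURKB (0.02) and BIRC5 (-0.02) did not pass either, AURKB and BIRC5 being the kinase and a partner of the chromosomal passenger complex. UBE2C, the ubiquitin carrier of the anaphase-promoting complex, and SMC4, a condensin subunit, passed at -0.27 (adjusted p = 0.029) and -0.22 (adjusted p = 0.039) although their libraries overlapped. The calls of UBE2C and CKS1B ended in 3 and 4 of the 6 fits that left out an undifferentiated library, with the smallest values without WT undifferentiated replicate 3 (-0.12, adjusted p = 0.15, and -0.07, adjusted p = 0.17). Those of SMC4 and FOXM1 ended in 5 of these 6 fits each, SMC4 with -0.10 (adjusted p = 0.21) without WT undifferentiated replicate 2 and FOXM1 with -0.12 (adjusted p = 0.11) without HBBko undifferentiated replicate 3.

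After 48 h 5 members were lower and 1 was higher in HBBko, against 9.21% and 9.52% of all tested genes (18.7% in all), and this split turned to 6 higher and 1 lower under equal library totals, where 29.4% and 5.51% of all tested genes were higher and lower. With array weights 20 were lower and 1 higher (19.4% and 23.8% of all tested genes). With only the groups compared 19 were lower and 2 higher (15.8% and 19.8% of all tested genes). With globins removed before the totals were equalised none was higher and 8 were lower (7.34% and 9.9% of all tested genes). The member median was -0.11 beside 0.02 over all genes. HMMR stood at 66.4, 70.1 and 69.6 scaled TPM in WT and at 55.4, 55.0 and 52.4 in HBBko (-0.33 ± 0.08, adjusted p = 0.0054). KIF20A (chromosome 5, 138178719 to 138187715, plus strand) stood at 56.3, 60.4 and 62.1 against 45.8, 49.1 and 48.0 (-0.32 ± 0.07, adjusted p = 0.005), and was the only one of the 6 whose call held under every alternative run. ANLN at 38.6, 40.2 and 36.8 against 30.7, 31.5 and 31.0 (-0.30 ± 0.06, adjusted p = 0.0021) and MKI67 at 61.6, 65.0 and 68.3 against 49.0, 55.7 and 53.8 (-0.29 ± 0.06, adjusted p = 0.0024) were also lower with no overlap. PLK1, the polo kinase, was lower at -0.23 (adjusted p = 0.031), but this call ended in 5 of the 6 fits that left out a 48 h library, with -0.21 (adjusted p = 0.12) without WT 48 h replicate 3. MAD2L1 stood at 51.8, 54.0 and 47.8 in WT and at 55.8, 58.7 and 60.4 in HBBko (0.19 ± 0.06, adjusted p = 0.035), and this call ended in 4 of those 6 fits, with 0.14 (adjusted p = 0.18) without WT 48 h replicate 3. NDC80 was at -0.19 (adjusted p = 0.14) and TOP2A at -0.13 at this stage, neither past the threshold.

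After 5 d the list read mostly higher in HBBko, with 20 members higher and 5 lower, against 26.5% and 24.8% of all tested genes (51.3% in all). The member median was 0.17 beside 0.02 over all genes. Under equal totals, which raise the median of all tested genes to 0.27, 35 members were higher and none was lower (54.3% and 8.84% of all tested genes). With globins removed the split was 21 and 5 (27.7% and 23.2% of all tested genes). With median-of-ratios scaling it was 18 and 5 (24.7% and 27.1% of all tested genes). No library of HBBko overlapped WT for any of the 25 genes. These genes were selected by their adjusted p, and the share without overlap among all tested genes was not counted.

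**Figure D3:**
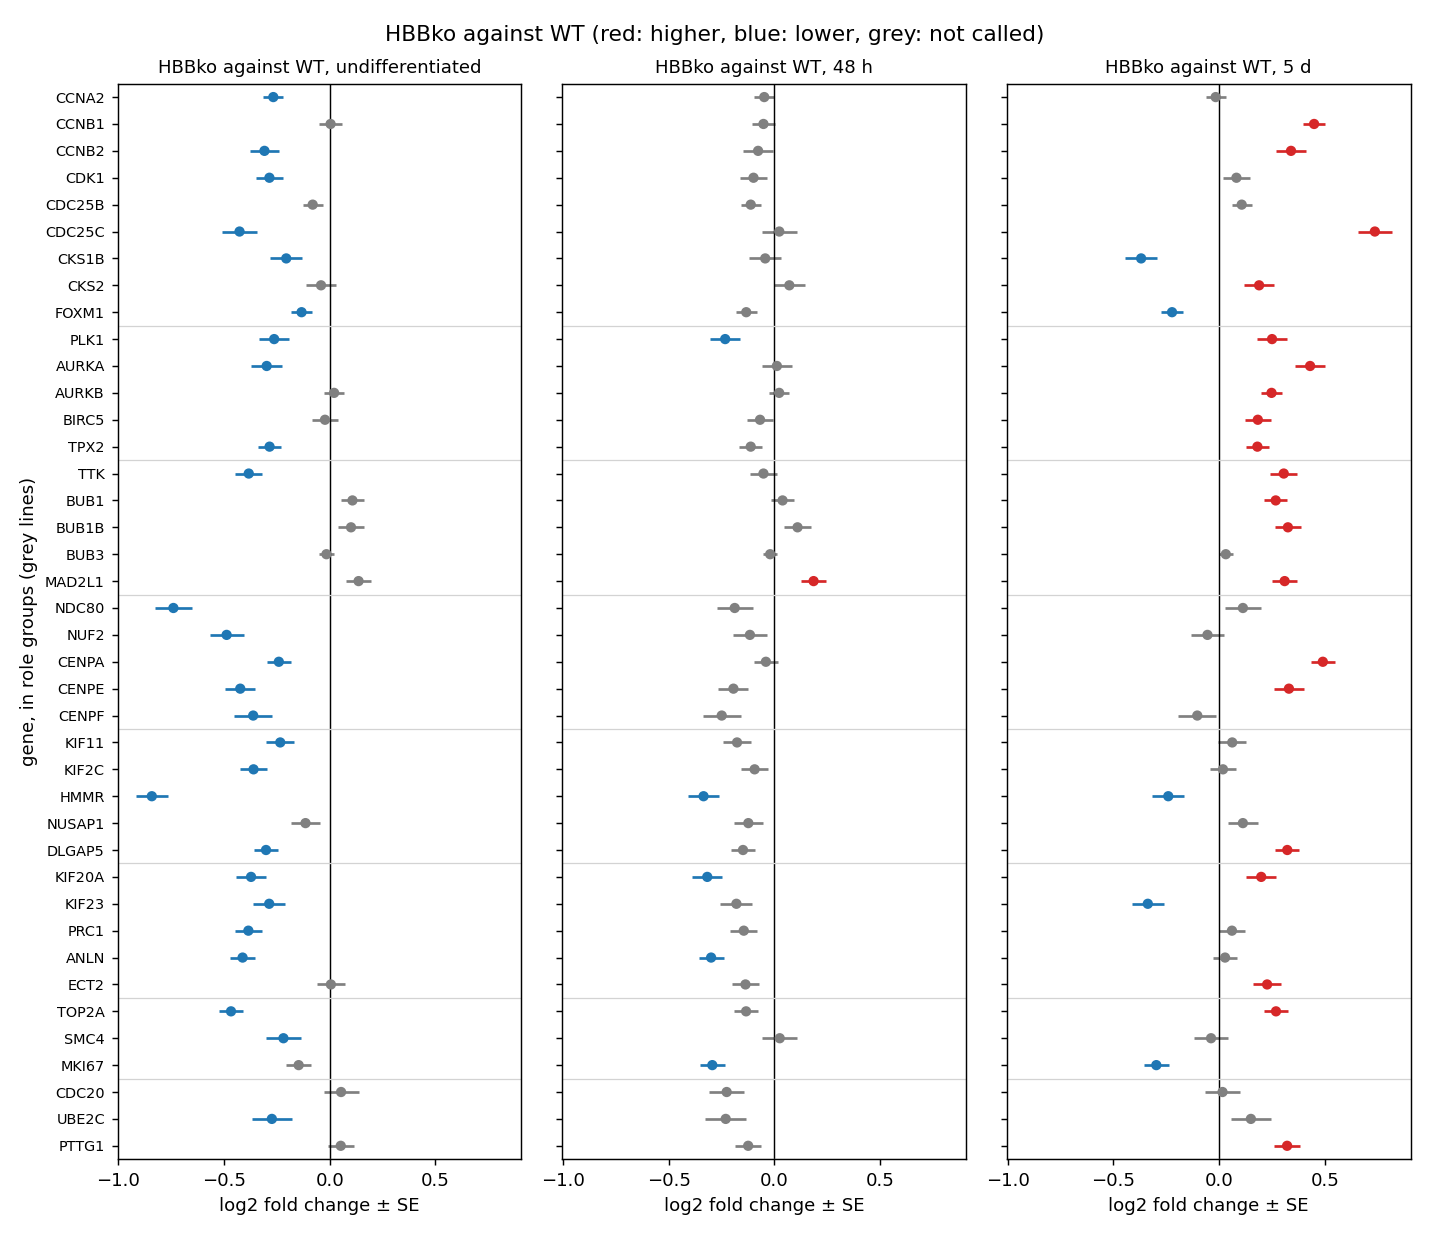
Log2 fold change of HBBko against WT on the log2(scaled TPM + 1) scale with its standard error for the 40 genes, without differentiation (left), at 48 h (middle) and at 5 d (right); red points were higher, blue points lower and grey points not past an adjusted p of 0.05. The 26 blue points without differentiation give way to 20 red and 5 blue ones at 5 d; under equal library totals the 48 h split of 1 higher and 5 lower turns to 6 and 1.

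The largest differences at 5 d were those of CDC25C, CENPA, CCNB1 and AURKA. CDC25C stood at 21.7, 22.3 and 22.01 scaled TPM in WT and at 35.7, 38.1 and 38.2 in HBBko, a log2 fold change of 0.74 ± 0.08 (adjusted p = 1.4e-06). CCNB1 (chromosome 5, 69167010 to 69178245, plus strand) stood at 161.6, 168.6 and 163.4 against 219.8, 224.4 and 231.2 (0.45 ± 0.05, adjusted p = 3.2e-06). AURKA, the centrosomal aurora kinase, stood at 90.6, 87.1 and 93.0 against 121.1, 118.4 and 126.5 (0.43 ± 0.07, adjusted p = 9.8e-05). In each of these genes every HBBko library lay above every WT library, and the libraries of a line differed little among themselves. All 5 mitotic kinases and partners were higher (median 0.25; 4 of 5 with median-of-ratios scaling), with PLK1 and AURKB at 0.25 and BIRC5, survivin, at 0.18. TPX2, the activator of AURKA, stood at 150.1, 146.7 and 148.2 in WT and at 167.7, 166.1 and 171.4 in HBBko (0.18, adjusted p = 0.011). CENPA (chromosome 2, 26764289 to 26801067, plus strand) stood at 45.0, 43.9 and 44.0 against 63.6, 63.0 and 61.6 (0.49 ± 0.06, adjusted p = 2.4e-06), and CENPE was higher at 0.33, whereas NDC80 (0.11), NUF2 (-0.05) and CENPF (-0.10) did not pass. Of the checkpoint genes 4 of 5 were higher (median 0.31; 5 of 5 under equal totals): BUB1B at 0.33, MAD2L1 at 0.31, TTK at 0.31 and BUB1 at 0.27. BUB3 was nearly level, at 176.0, 175.7 and 177.5 scaled TPM in WT and at 179.2, 179.4 and 182.8 in HBBko (0.03). PTTG1 (0.32), DLGAP5 (0.32), TOP2A (0.27), ECT2 (0.23) and CCNB2 (0.34) were higher as well.

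The 5 lower genes at 5 d were CKS1B, KIF23, MKI67, HMMR and FOXM1. CKS1B, the other small CDK adaptor (chromosome 1, 154974653 to 154979249, plus strand), stood at 206.0, 202.2 and 208.8 scaled TPM in WT and at 157.8, 163.2 and 156.4 in HBBko (-0.37 ± 0.08, adjusted p = 0.0007), while its paralog CKS2 was higher, at 271.1, 271.4 and 264.6 against 300.02, 305.1 and 316.3 (0.19 ± 0.07, adjusted p = 0.036). The CKS2 call ended in each of the 6 fits that left out a 5 d library (adjusted p from 0.051 to 0.11). MKI67 stood at 154.3, 144.2 and 138.9 against 123.5, 116.4 and 115.6 (-0.30 ± 0.06, adjusted p = 0.00048), and KIF23 at 102.5, 103.9 and 94.0 against 77.8, 80.8 and 78.4 (-0.34 ± 0.08, adjusted p = 0.0013). FOXM1 stood at 117.4, 105.8 and 110.5 against 100.6, 89.96 and 95.2 (-0.22 ± 0.05, adjusted p = 0.0014). None of the 5 lower calls held under equal totals, where CKS1B read -0.03 (adjusted p = 0.66) and FOXM1 0.11. HMMR (-0.24, adjusted p = 0.014) also missed the threshold without WT 5 d replicate 2 (-0.21, adjusted p = 0.057) and without HBBko 5 d replicate 1 (adjusted p = 0.054), KIF20A (0.20) without WT 5 d replicate 1 (0.16, adjusted p = 0.10) and without HBBko 5 d replicate 2 or 3, and BIRC5 without HBBko 5 d replicate 1 (adjusted p = 0.056).

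The genotype comparisons at the 3 stages share no library, but they share the estimate of spread of each gene. Their calls are therefore set side by side and are not independent. On the deposited scale HMMR was lower in HBBko at each stage, at -0.84, -0.33 and -0.24, though under equal totals it read 0.09 at 5 d. PLK1 and KIF20A were lower at the first 2 stages and higher at 5 d, and 9 genes were lower without differentiation, not past the threshold at 48 h and higher at 5 d. MAD2L1 was higher at 48 h and at 5 d. The calls of PLK1 and MAD2L1 at 48 h and of KIF20A at 5 d ended in some fits that left out a library, as given above. MKI67 was lower at 48 h and at 5 d (0.04 at 5 d under equal totals) and stood at -0.15 (adjusted p = 0.053) without differentiation. CKS1B, KIF23 and FOXM1 were lower without differentiation and at 5 d, and ANLN at the first 2 stages. In 8 genes the only call was higher at 5 d, in 10 the only call was lower without differentiation, and 4 had no call at any stage. The shares of these patterns among all tested genes were not counted. Fewer of all tested genes were called at 48 h (18.7%) than without differentiation (43.3%) or at 5 d (51.3%).

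Whether the genotype difference itself changed between stages was tested by an interaction term. From undifferentiated cells to 48 h it rose in 7 members and fell in none, against 7.67% and 5.51% of all tested genes (13.2% in all). NDC80 went from -0.74 to -0.19, a change of 0.55 ± 0.12 (adjusted p = 0.0088), and HMMR from -0.84 to -0.33, a change of 0.51 ± 0.11 (adjusted p = 0.0068). The others were CDC25C (0.45), NUF2 (0.37), TOP2A (0.33), TTK (0.33) and CCNA2, cyclin A2 (0.22). Without WT undifferentiated replicate 3, 6 rose and 1 fell, where 941 and 699 of the 12005 tested genes did. Under equal totals 17 rose (15.2% of all tested genes). With array weights there were 12 calls (15.4% of all tested genes), and with only the groups compared 4 (10.8% of all tested genes). With globins removed before totals were equalised the split was 7 and 1 (5.79% and 5.68% of all tested genes). Without WT undifferentiated replicate 1 there were 16 calls, where 2481 of the 12005 tested genes were called, beside 1582 in the fit over all 18 libraries. Without WT 48 h replicate 1, HBBko undifferentiated replicate 1 or HBBko 48 h replicate 2 there were 3, where 967, 830 and 926 of all tested genes were called. The call of CDC25C ended in each of those last 3 fits (0.39 to 0.42, adjusted p = 0.05 to 0.058), and those of NUF2, TTK and CCNA2 ended in these and further ones.

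From 48 h to 5 d the difference rose in 20 members and fell in 1, against 11.5% and 13.1% of all tested genes (24.6% in all). CDC25C went from 0.02 to 0.74, a change of 0.71 ± 0.12 (adjusted p = 0.00027). CENPA went from -0.04 to 0.49, a change of 0.53 ± 0.08 (adjusted p = 0.00017), and CCNB1 from -0.05 to 0.45, a change of 0.50 ± 0.08 (adjusted p = 0.00016). CENPE (0.52), KIF20A (0.52), PLK1 (0.48) and DLGAP5 (0.47) followed, and all 5 mitotic kinases and partners were among the 20 (4 of 5 with median-of-ratios scaling). CKS1B was the gene whose difference fell, by 0.32 ± 0.11 (adjusted p = 0.037), and this call ended in 10 of the 12 fits that left out a 48 h or 5 d library (adjusted p up to 0.084). Of the 20 rises, those of BIRC5, UBE2C, BUB1, CDC25B and AURKB ended in 12, 11, 9, 5 and 3 of these 12 fits (adjusted p from 0.05 to 0.11), BIRC5 and AURKB being 2 of the 5 kinases and partners. The split was 33 and 0 under equal totals (24.9% and 5.92% of all tested genes). It was 23 and 1 with globins removed (12.9% and 10.9% of all tested genes). With median-of-ratios scaling it was 17 and 1 (11.1% and 14.2% of all tested genes). Both interaction tests use the 48 h libraries.

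**Figure D4:**
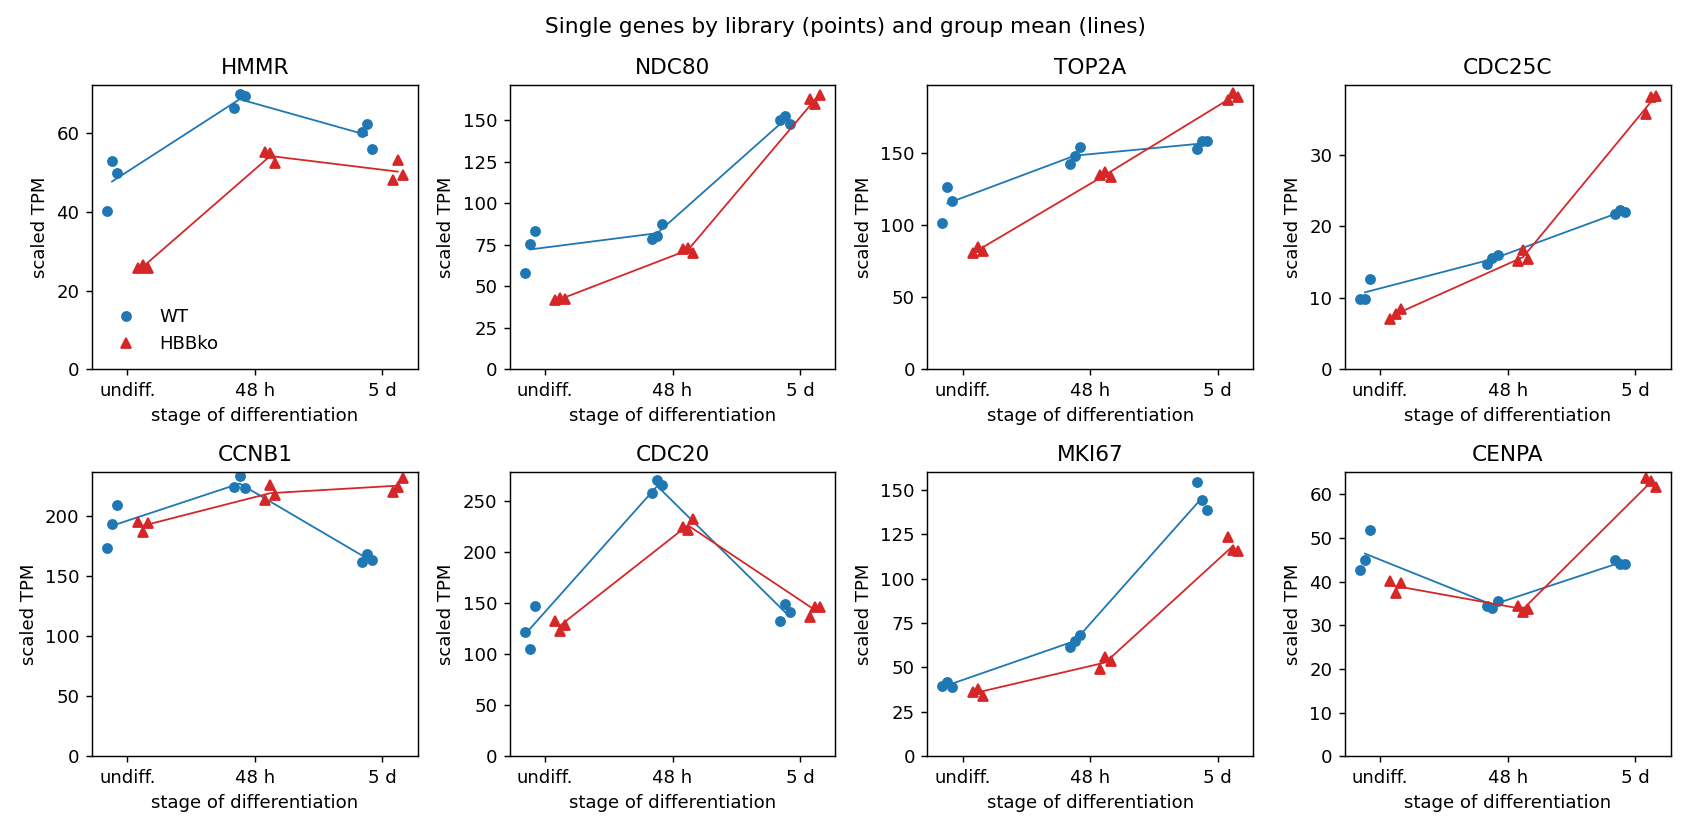
Scaled TPM (vertical axes, each from 0) of 8 members by stage, HMMR, NDC80, TOP2A, CDC25C, CCNB1, CDC20, MKI67 and CENPA, with WT in blue circles and HBBko in red triangles; points are libraries and lines join group means of 3. HMMR is lower in HBBko at each stage on this scale (0.09 in log2 fold change at 5 d under equal totals), CDC25C at 5 d stands at 35.7 to 38.2 in HBBko against 21.7 to 22.3 in WT, and CDC20 peaks at 48 h in both lines.

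The choice of scaling moved the time comparisons more than the genotype comparison without differentiation. Under equal library totals the median of all tested genes was -0.28 and -0.70 for the 2 WT steps and -0.18 and -0.57 for the HBBko steps. The member median exceeded it by 0.42, 0.44, 0.52 and 0.67 in that order, and on the deposited scale by 0.43, 0.57, 0.52 and 0.75. For HBBko against WT the member median relative to all genes was -0.25 without differentiation under both scalings, -0.13 and -0.12 at 48 h, and 0.15 and 0.23 at 5 d.

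**Figure D5:**
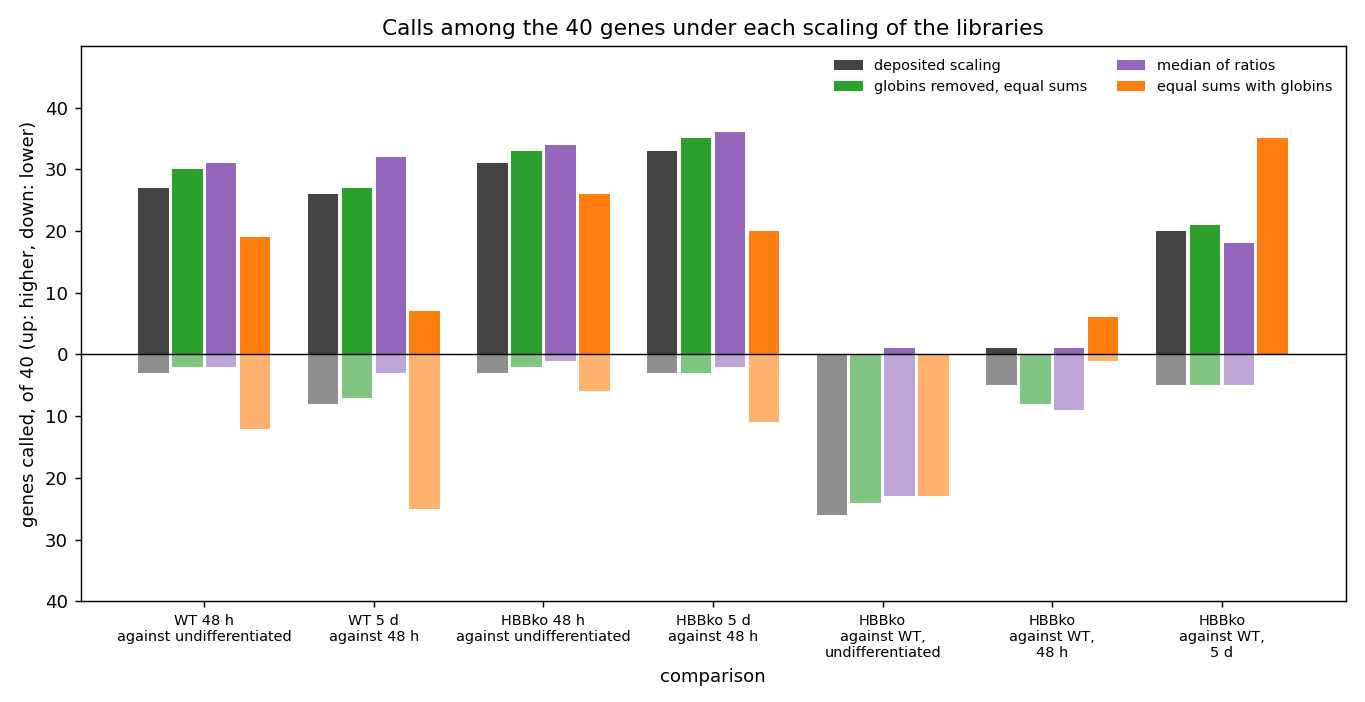
Number of the 40 genes called higher (bars up) and lower (bars down) in each of 7 comparisons under 4 scalings of the libraries. The lower calls without differentiation number 23 to 26 under each scaling, whereas under equal totals WT 5 d against 48 h turns from 26 higher and 8 lower to 7 and 25 and HBBko against WT at 48 h from 1 and 5 to 6 and 1.

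The authors' deposited tables of the genotype comparisons hold a q-value for each of the 40 genes. At q under 0.05 the authors' deposited table without differentiation has 18 members lower and none higher, against 13.4% and 11.6% of its 14581 genes (25.0% in all). At 48 h the authors' deposited table has 21 lower and 1 higher, against 14.4% and 14.9% of its genes (29.3% in all), which is more lower calls than the 5 of the fit over all 18 libraries. At 5 d the authors' deposited table has 22 higher and 5 lower, against 21.9% and 21.4% of its genes (43.3% in all). The median log2 fold changes over the 40 genes in the authors' deposited tables are -0.28, -0.13 and 0.16.

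The remaining genes of the G2 and M programme were taken from a list of 112, of which 111 passed the filter. In undifferentiated cells 41 of these (36.9%) were lower and 10 (9.01%) higher in HBBko, beside 22.3% and 20.9% of all tested genes, among them NEK2, a centrosomal kinase, at -0.62, CIT, citron kinase of the midbody, at -0.56 and CKAP2L at -0.55. The higher ones included CDC25A at 0.40 and ANAPC1, the scaffold subunit of the anaphase-promoting complex, at 0.40. Under equal totals 32 were lower and 11 higher, beside 19% and 22.9% of all tested genes. At 48 h 13 (11.7%) were lower and 7 (6.31%) higher, near the 9.21% and 9.52% of all tested genes, and under equal totals 1 was lower and 25 (22.5%) higher, where all tested genes had 5.51% and 29.4%. At 5 d 34 (30.6%) were higher and 21 (18.9%) lower, beside 26.5% and 24.8% of all tested genes, and under equal totals 87 (78.4%) and 3, beside 54.3% and 8.84%. ANAPC7 (0.70), SPDL1 (0.64) and SGO2, shugoshin (0.54), were higher at 5 d, and ANAPC16 (-0.70), CENPM (-0.55) and FZR1, the anaphase-promoting complex activator of late mitosis and G1 (-0.50), were lower. All tested genes gave 23.5% to 30.8% higher and 40.1% to 49.5% lower over the 4 steps. In WT 61 rose and 23 fell to 48 h (30 and 36 under equal totals, beside 13.3% and 55.8% of all tested genes). From 48 h to 5 d 70 rose and 23 fell in WT (26 and 64 under equal totals, beside 13.9% and 71.6%). In HBBko 70 rose and 15 fell to 48 h (58 and 19 under equal totals, beside 19.4% and 46.7% of all tested genes). From 48 h to 5 d 72 rose and 16 fell in HBBko (44 and 46 under equal totals, beside 17% and 66.2%). Of 16 subunits and partners of the anaphase-promoting complex, 4 were higher and 10 lower in the last step in WT, 4 higher and 9 lower in HBBko (7 and 7 with median-of-ratios scaling), led by ANAPC1 at -1.65 and -1.605. All 12 entry kinases, phosphatases and regulators of the list rose in that step in both lines on the deposited scale, while under equal totals 7 rose in each line and 4 fell in WT and 2 in HBBko.

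Of 39 genes of S phase, 9 (23.1%) were higher and 8 (20.5%) lower in HBBko without differentiation, near the 20.9% and 22.3% of all tested genes, with MCM4 of the replicative helicase at 0.43, RRM2 of ribonucleotide reductase at 0.42 and CDT1, the licensing factor, at -0.75. At 48 h 10 (25.6%) were higher and 1 lower, beside 9.52% and 9.21%, and under equal totals 26 (66.7%) and 1, beside 29.4% and 5.51%. At 5 d 6 (15.4%) were higher and 13 (33.3%) lower, beside 26.5% and 24.8%, a split that turned to 28 (71.8%) and 1 under equal totals, beside 54.3% and 8.84%, with E2F1 at -0.75 and LIG1, the replicative DNA ligase, at -0.36 among the lower and CCNE1, cyclin E1, at 0.46 among the higher. Between 48 h and 5 d the genotype difference fell in 12 S phase genes (30.8%) and rose in none, beside 13.1% and 11.5% of all tested genes, but fell in 2 and rose in 7 (17.9%) under equal totals, beside 5.92% and 24.9%. The S phase list was not tested against the G2 and mitosis list.

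Of 14 CDK inhibitors and G1 genes, 10 (71.4%) were lower and none higher in HBBko at 5 d, beside 24.8% and 26.5% of all tested genes. At each earlier stage 5 were lower and 1 was higher. Of all tested genes 22.3% were lower and 20.9% higher without differentiation, and 9.21% and 9.52% at 48 h. Under equal totals 5 were lower and 3 higher at 5 d, beside 8.84% and 54.3%. CDKN1A, the p21 inhibitor, was at a mean of 3.62 scaled TPM in HBBko and 15.8 in WT at 5 d, a log2 fold change of -1.88, while at 48 h it was higher in HBBko (0.86). In WT it had risen by 3.09 between 48 h and 5 d, and the genotype difference changed by -2.74 over that step. By these values CDKN1A was low in both lines at 48 h, close to the filter floor of 1 scaled TPM. At such levels the 1 added before the logarithm weighs on the fold changes. CDK6, a G1 kinase, was lower in HBBko at each stage (-0.80, -1.77 and -1.84), and CCND1, cyclin D1, was higher without differentiation (1.23).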

How the data were processed

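The authors deposited 1 table of signal per gene symbol for the 18 libraries, named TPM per the file headers and names, whose library totals run from 783213 to 1508340; it was read as TPM with a further scaling between libraries and is called scaled TPM. Per the submitters' processing notes kallisto, sleuth and hg38 were used, and versions, transcript annotation and the scaling step are not given in the sources used here. Plain TPM had been planned for, and the test was kept. Columns named thal and wen were read as HBBko and WT from the names alone. No counts were used, so depth is unknown and no counting interval is given. The library kit does not mark strand, and exons of SMC4 (25.6% of bases), FOXM1 (15.9%) and PLK1 (12.5%) overlap genes of the other strand in GENCODE.

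Values were tested as log2(scaled TPM + 1) with limma 3.58.1 in R 4.3.3 (group means over all 18 libraries, 12 residual degrees of freedom, moderated variance with trend), over the 12005 genes that reached 1 scaled TPM in 3 or more libraries. Adjusted p-values are two-sided and use Benjamini-Hochberg over those genes. There were 9 comparisons: 3 of genotype, 4 of time and 2 interactions. The scripts were tested on simulated data. The authors also deposited, for each stage, log2 fold changes, p-values and q-values in the layout of a sleuth Wald test per the file headers; their score-like variance terms were deposited too and not used. Deviations of same-numbered libraries from their group means were correlated over all genes tested as a check of pairing, which the labels do not state. All 3 same-numbered pairs were over 0.1 in 3 of the 15 pairs of groups, HBBko and WT without differentiation (0.121 to 0.173), HBBko and WT at 5 d (0.131 to 0.180) and WT undifferentiated and 48 h (0.102 to 0.194), so the numbers were taken to pair the libraries in these 3 comparisons and not in the others.

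The members, the other lists and the tests were chosen with earlier results of these data known. Any member may be named; values by library are given for the member of highest mean level in each role, for the 3 called members with the largest log2 fold change in each direction of each comparison and, where chosen after values were seen, for others. Of other lists at most 3 called genes per direction and comparison are named. Promoter windows are RefSeq's (GRCh38.p14), gene spans GENCODE's (GRCh38). Alternatives were a pseudocount of 5, no filter, 3 other scalings, a replicate block, array weights, only the groups compared and leaving out each library.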

Additional observations from a re-analysis of the deposited data

Results flagged for a closer look

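The difference between HBBko and WT changed between stages in 28 tests on the 40 genes, by limma's interaction test on the log2(scaled TPM + 1) scale with Benjamini-Hochberg adjusted p under 0.05, which is what singled them out. From undifferentiated cells to 48 h the HBBko minus WT difference rose by 0.55 for NDC80, 0.51 for HMMR, 0.45 for CDC25C, 0.37 for NUF2, 0.33 for TOP2A, 0.33 for TTK and 0.22 for CCNA2. In these 7 genes HBBko was lower than WT without differentiation. The calls of CDC25C, NUF2, TTK and CCNA2 ended in some of the fits that left out a library.

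From 48 h to 5 d the difference rose by 0.71 for CDC25C, the largest change, and by 0.53 for CENPA, 0.52 for CENPE, 0.52 for KIF20A and 0.50 for CCNB1. It rose by 0.48 for PLK1, 0.47 for DLGAP5, 0.45 for PTTG1, 0.42 for AURKA, 0.42 for CCNB2 and 0.40 for TOP2A. Smaller rises were those of UBE2C (0.38), ECT2 (0.36), TTK (0.36), ANLN (0.33), TPX2 (0.29), BIRC5 (0.25), BUB1 (0.23), AURKB (0.23) and CDC25B (0.22). CKS1B changed by -0.32, against the other 20. With a library left out in turn, the calls of BIRC5, UBE2C, CKS1B, BUB1, CDC25B and AURKB ended in 12, 11, 10, 9, 5 and 3 of 12 fits. CDC25C, TOP2A and TTK are in both sets, and both tests use the 48 h libraries.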

How the results depend on the processing

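The number of members past the threshold stayed within 1.5 times its reported value, in the same main direction, under a pseudocount of 5, no filter and globins removed before totals were equalised, and with 10 other combinations of comparison and setting it did not, or the main direction turned. These were 14 calls for HBBko against WT without differentiation with only the groups compared; 7 calls at 48 h under equal totals, mostly higher, 10 with median-of-ratios scaling, 21 with array weights and 21 with only the groups compared; 32 calls for WT 5 d against 48 h under equal totals, mostly lower; 17, 12 and 4 calls for the interaction from undifferentiated cells to 48 h under equal totals, array weights and only the groups compared; and 33 for the interaction from 48 h to 5 d under equal totals. The cause was not tested. With a single library left out the counts ran from 22 to 28, 4 to 5 and 22 to 24 for the genotype comparisons at the 3 stages. They were 30 to 33 and 32 to 33 for the WT steps, and 33 and 35 to 36 for the HBBko steps. For the interactions they ran from 3 to 16 and 15 to 19. Among all 12005 tested genes the same fits called 4111 to 5510, 1179 to 1759 and 5431 to 5673 for genotype. For the WT steps they called 7158 to 7983 and 9268 to 9409, and for the HBBko steps 7270 to 7441 and 9217 to 9338. For the interactions they called 830 to 2481 and 2310 to 2808. A fit without a library leaves its group with 2. The replicate block, with 26, 9 and 25 calls for genotype at the 3 stages and 9 and 23 for the interactions, moved 9 gene results past the threshold and removed none. In the 3 comparisons where the numbers were taken to pair the libraries, the block added NDC80 for WT 48 h against undifferentiated and changed no other call. The block gave each replicate number a common effect over all 18 libraries. It was therefore no paired test of these comparisons, and a paired test was not run.

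Single genes turned direction under 2 scalings. Under equal totals the log2 fold change read 0.12 for BUB3 in HBBko against WT at 48 h, and at 5 d 0.32 for CCNA2, 0.23 for CENPF, 0.11 for FOXM1, 0.091 for HMMR, 0.039 for MKI67, 0.28 for NUF2 and 0.30 for SMC4. For WT 48 h against undifferentiated it read -0.11 for AURKB and -0.16 for CKS2. For WT 5 d against 48 h it read -0.52 for ANLN, -0.23 for AURKA, -0.43 for AURKB, -0.48 for BIRC5, -0.51 for BUB1B, -0.54 for BUB3, -0.21 for CCNA2, -0.13 for CDC25C, -0.28 for CENPA, -0.16 for CENPE, -0.38 for CENPF, -0.16 for CKS1B, -0.16 for KIF11, -0.25 for PTTG1, -0.56 for TOP2A, -0.32 for TPX2 and -0.24 for UBE2C. For HBBko 5 d against 48 h it read -0.0040 for ANLN, -0.010 for AURKB, -0.036 for BIRC5, -0.099 for BUB1B, -0.30 for BUB3, -0.41 for CCNB1, -0.20 for CCNB2, -0.045 for CENPF, -0.29 for CKS1B, -0.092 for DLGAP5, -0.28 for KIF20A, -3.2e-06 for PLK1 and -0.20 for TTK. Under median-of-ratios scaling it read 0.11 for BUB3 in WT 48 h against undifferentiated, 0.018 for BUB1, 0.10 for CCNB2, 0.16 for DLGAP5, 0.066 for HMMR, 0.24 for PLK1 and 0.15 for TTK in WT 5 d against 48 h, 0.082 for BUB3 in HBBko 48 h against undifferentiated, and 0.23 for BUB1 and 0.018 for CKS2 in HBBko 5 d against 48 h. Of the 360 gene results 237 kept direction and side of the threshold under equal totals, 332 with globins removed, 320 with median-of-ratios scaling, 358 with a pseudocount of 5 and 344 without a filter. Depth is unknown, and 3 libraries a group limit the precision.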
